A study of Homo sapiens with 11 samples.

Results

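LRP2 (megalin), CUBN (cubilin), AMN (amnionless), DAB2, GIPC1, CLTC (clathrin heavy chain), CLCN5 and OCRL are 8 genes of the route by which the kidney proximal tubule takes filtered proteins back from the urine. They were listed by name for their part in that route and found by gene name in the RNA-seq data, where all 8 were present among 58288 genes, of which 19645 are protein-coding. Their levels were read in HK2 cells, an immortalised line from human proximal tubule, together with the peaks of 3 histone marks at their transcription start sites (TSSs) and over their gene bodies. The series profiled histone marks, chromatin contacts and RNA in these cells.

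All samples came from HK2 cells grown in DMEM-F12 with 10% FBS, penicillin-streptomycin and 0.05% DMSO, so there was a single condition and no groups to test against each other. RNA depleted of ribosomal RNA was extracted with Trizol and sequenced in 2 libraries. Cells fixed in 1% formaldehyde gave ChIP-seq of H3K4me3, a mark of promoters, H3K27ac, a mark of active promoters and enhancers, and H3K27me3, a mark of repressed chromatin, with 2 replicates of each. As a model the line is limited by being immortalised and by having been grown in a single way.

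Megalin and cubilin are giant receptors of the apical membrane that bind albumin, vitamin-binding proteins, hormones and many drugs. Cubilin has no membrane anchor of its own, so amnionless carries it to the surface, and adaptors and clathrin then draw the loaded receptors into vesicles. In early endosomes the chloride-proton exchanger ClC-5 helps to acidify the lumen and the lipid phosphatase OCRL adjusts the membrane so that receptors return to the surface, and inherited loss of these proteins lets small proteins escape into the urine.

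The label of the cells was first set against marker genes. Of 13 proximal tubule markers, 5 had 1 FPKM or more in both libraries, where FPKM is a level corrected for the length of the transcript and for sequencing depth. The highest was the brush border enzyme GGT1 at 64.1 and 58.1, followed by the peptidases DPP4 at 28.7 and 32.5 and MME at 8.31 and 7.95. The glucose carrier SLC5A2 was at 1.56 and 2.36 and the creatine pathway enzyme GATM at a mean of 1.96. The defining transporters SLC5A1, SLC22A6 and SLC22A8 were listed at 0 in both libraries, and the 13 genes summed to 105 and 103. The peptidase ANPEP did not pass, at 0.297 and 0.0296, and of the transporters that define the segment only SLC5A2 passed. Of 5 markers of other nephron segments, 0 reached 1 FPKM, 3 were listed at 0 and the sum was 0.0440 and 0.116, with SLC12A3 the highest. Of 4 podocyte markers only the sialomucin PODXL passed, at 4.41 and 5.85, 2 were listed at 0 and the sum was 4.41 and 5.87. Simple epithelium markers passed in 5 of 6 cases, led by the keratin KRT8 at 179 and 184, while CDH1 (E-cadherin) was at 0.210 and 0.283 and CDH2 (N-cadherin) at 59.3 and 59.7. Of 4 markers of other cells 2 passed, the intermediate filament gene VIM at 709 and 1133 and the collagen gene COL1A1 at 40.3 and 39.9, while the leukocyte gene PTPRC was listed at 0 and the endothelial gene PECAM1 was at 0.00387 and 0. These 4 summed to 749 and 1172, and the part of this signal in the levels of the 8 genes was not tested.

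The 8 genes did not share a level. The coat protein CLTC and the adaptor GIPC1 were among the highest genes of these cells, the apical receptors were low or not detected, and the rest lay between. Mean FPKM was 90.4 ± 3.42 for CLTC, 62.3 ± 4.20 for GIPC1, 17.5 ± 0.323 for OCRL, 2.59 ± 0.235 for AMN, 1.78 ± 0.288 for CLCN5 and 0.0375 ± 0.00579 for CUBN (SD, n = 2 libraries), with DAB2 between OCRL and AMN. LRP2 was listed at 0 in both. Each value is a sum of levels per kilobase over the transcripts of a gene, so reads assigned to short transcripts weigh more. In AMN, ENST00000559507, of 435 bases, gave 19.3% and 14.5% of the FPKM from 3.85 and 3.20 read pairs. Genes can thus be set side by side only roughly. In the order of the means, no gene's range over the libraries met that of its neighbour. Ratios of neighbouring means ran from 1.45 for CLTC over GIPC1 to 47.5 for CLCN5 over CUBN, and the step from CUBN to LRP2 has no ratio because LRP2 is at 0.

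**Figure D1:**
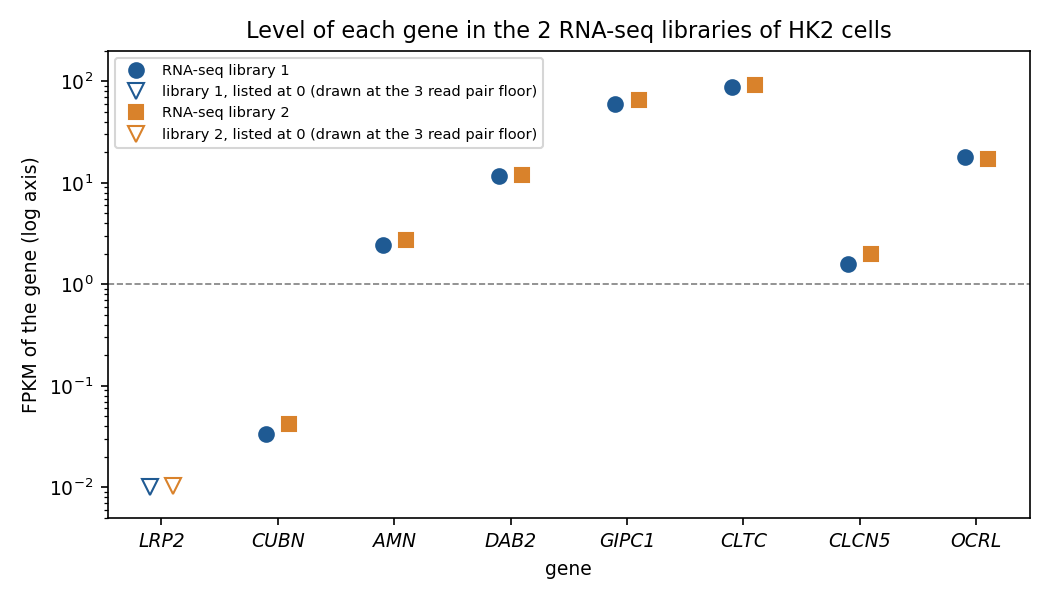
FPKM of each of the 8 genes on a log axis, with a circle for RNA-seq library 1 and a square for library 2, and a dashed line at 1. Both points of a gene nearly coincide, LRP2 is drawn as open triangles at the level that 3 read pairs would give, and only LRP2 and CUBN lie under the line.

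At least 1 FPKM in both libraries was reached by 6 of the 8, and by 58.8% of the protein-coding genes measured. The median of log10(FPKM + 1) was 0.831 over the 8 genes and 0.636 over all protein-coding genes. Medians of the mean FPKM itself, taken without logs, were 7.19 and 3.32. For the 8 genes the median is a midpoint between AMN and DAB2, so 0.831 does not convert back to 7.19. LRP2 was the only member listed at 0 in both libraries, as were 19.6% of protein-coding genes. The members are not replicates of each other, and these counts describe them without a test.

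At the TSSs the adaptors, the coat gene and the endosomal genes differed from the apical receptors. DAB2, GIPC1, CLTC, CLCN5 and OCRL carried peaks of H3K4me3 and H3K27ac no farther than 1 kb from an annotated TSS in both replicates of each mark, which is 5 of 8 genes against 53.5% of protein-coding genes. None of these 5 had an H3K27me3 peak there in either replicate, a pattern of presence and absence over the 6 lists shared by 10093 genes, whose median FPKM was 11.8. In that class 92.9% of genes reached 1 FPKM in both libraries. The call rests in part on short H3K27ac peaks of replicate 2, and with peaks of at least 500 bp only GIPC1 and CLTC kept it, 2 of 8 genes against 43.6% of protein-coding genes. The members were thus above the background in the first count and below it in the other. H3K27me3 lay within 1 kb of a TSS in both replicates in LRP2 and AMN, 2 of 8 genes against 11.4% of protein-coding genes. AMN was the 1 member with H3K4me3 and H3K27me3 there in both replicates and no replicated H3K27ac, against 5.73% of protein-coding genes. That count was 2, with LRP2, against 9.16% of protein-coding genes when replicate 1 was left out, and 0 against 4.76% when replicate 2 was left out. Genes without a peak of any list within 1 kb of a TSS made up 15.1% of protein-coding genes and 0 of the 8 members, although CUBN had only 2 H3K27ac peaks of replicate 1 near an internal TSS and counted as unmarked when its canonical TSS alone was used.

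**Figure D2:**
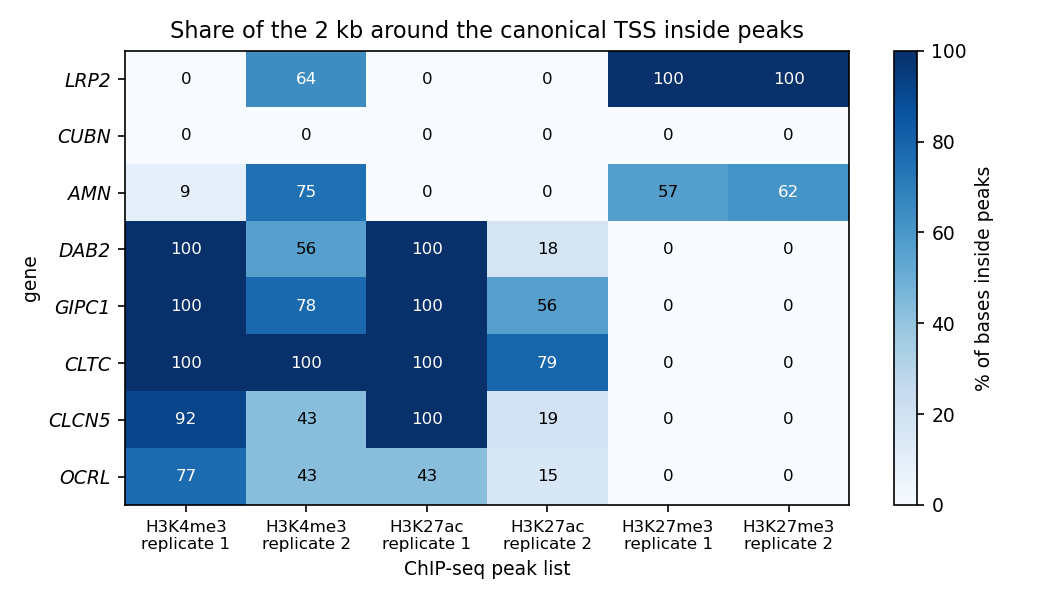
Percentage of the bases in the 2 kb around the canonical TSS that lie inside peaks, for each gene and each of the 6 ChIP-seq peak lists, with darker blue for a larger share. H3K27me3 covers all of the LRP2 window in both replicates, CUBN has 0 in every list, and CLTC has H3K4me3 over the whole window in both replicates.

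Megalin is the receptor on which much of the uptake of filtered protein depends. LRP2 (ENSG00000081479) spans 235 kb of chromosome 2, 169983619 to 170219044 in GRCh37 (hg19), and is read from the minus strand. All 5 of its transcripts were listed at an FPKM of 0 in both libraries, and 0 of the 79 exons of its longest transcript had any coverage. For that transcript, of 15808 bases, 3 read pairs would have given an FPKM of 0.0100 in library 1 and 0.0103 in library 2, which is the limit that a count of 0 allows. This limit covers counting error only, and lower values are listed for genes with fewer reads. Of 12 genes used by every cell, a list chosen after the data were seen, 12 were above 0 in both libraries, the lowest being the general transcription factor TBP at 15.9 and 16.0. In a bulk library fewer cells with an RNA and less RNA per cell cannot be told apart.

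The LRP2 start site carried a broad domain of H3K27me3. In replicate 1 a single H3K27me3 peak of 9041 bp ran from 170214040 to 170223080, and in replicate 2 a peak of 4384 bp from 170217555 to 170221938, both across the canonical TSS at 170219044. H3K4me3 was called over the TSS in replicate 2, from 170218228 to 170219515. The nearest H3K4me3 peak of replicate 1 began 1566 bp upstream, from 170220610 to 170221620. Replicate 2 had a further H3K4me3 peak inside that stretch, from -2.184 to -1.651 kb relative to the TSS. These overlapping upstream peaks lay under H3K27me3 in both replicates. The promoter mark was thus shared by both replicates just upstream, but it was within 1 kb of the TSS in replicate 2 alone. No H3K27ac peak lay over the gene in either replicate, and the nearest were 117 kb and 222 kb from the TSS. Over the gene body H3K27me3 had 34 peaks in replicate 1 and 11 in replicate 2, covering 22.8% and 2.38% of its length. Coverage at least as high in both replicates was found in 848 other protein-coding genes (4.32%). This is a share of each gene's own length, which a short gene can reach with a single peak. It does not count domains as wide as that of LRP2. The same pattern of the 6 lists at the TSS as in LRP2 was found in 482 protein-coding genes, of which 65.6% were listed at 0 in both libraries and 0.622% reached 1 FPKM.

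The 250 bases before the LRP2 TSS are printed because they lie under H3K27me3 in both replicates while being rich in CpG, and silent promoters rich in CpG are known to carry this mark often. They come from chr2:170219045-170219294 of GRCh37, minus strand, 5′ to 3′, with every CpG in capitals.
LRP2 promoter: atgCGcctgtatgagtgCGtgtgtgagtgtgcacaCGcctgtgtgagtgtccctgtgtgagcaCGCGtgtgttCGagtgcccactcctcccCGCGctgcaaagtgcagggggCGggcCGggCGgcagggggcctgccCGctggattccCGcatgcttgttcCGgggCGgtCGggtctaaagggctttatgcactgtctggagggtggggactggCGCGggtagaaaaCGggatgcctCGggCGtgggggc
There are 21 CpG in this window, against a median of 18 over 19546 protein-coding promoters of the same length. The median was 23 in promoters with H3K4me3 and H3K27ac in both replicates, also 23 in those with H3K4me3 and H3K27me3 and no replicated H3K27ac, and 3 in those without any peak.

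Cubilin, the peripheral partner of megalin, was the opposite case in chromatin. CUBN (ENSG00000107611) spans 306 kb of chromosome 10, 16865965 to 17171810 (minus strand), and its FPKM was 0.0334 and 0.0416 in libraries 1 and 2. These values are above the floor of 3 read pairs, 0.0133 and 0.0136 for this transcript, and 25.6% of protein-coding genes were lower. The aligned bases amount to 7.55 and 9.14 read pairs of 300 bases, so the level rests on few molecules. All of it was assigned to the full-length transcript ENST00000377833, while the 3 other transcripts were listed at 0. Of the 67 exons of that transcript, 17 were covered in library 1 and 20 in library 2, with 5 covered in both and 32 in either. The reads did not reach the start of the gene: the first covered exon was exon 18 and the last was exon 65. The 17 exons before it, which hold 2367 bases or 19.8% of the mRNA, had no coverage in either library. Whether this came from the small number of reads was not tested.

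No peak of any mark lay within 1 kb of the canonical CUBN TSS at 17171810. The nearest H3K27ac peaks were 13.2 kb and 13.8 kb away in replicates 1 and 2, the nearest H3K4me3 peaks 66.2 kb and 71.2 kb, and the nearest H3K27me3 peaks 157 kb and 323 kb. Inside the gene, H3K27me3 had 0 peaks in either replicate. CUBN thus had no called peak of the mark that covers the start of LRP2. H3K27ac had 22 peaks over the gene in replicate 1 and 14 in replicate 2, which covered 13.4% and 5.70% of its length. The medians over protein-coding genes were 4.05% and 0.909%, and 77.8% and 80.6% of genes were less covered than CUBN. Of the peaks of replicate 1, 20 were over 1 kb from any TSS of the gene, and 9 of these were met by a peak of replicate 2. All 14 peaks of replicate 2 met a peak of replicate 1. The widest shared peak of replicate 1, 5038 bp from 17006422 to 17011459, had its midpoint 163 kb into the gene. Of the 9 shared peaks, 2 met an H3K4me3 peak of replicate 1, so most had H3K27ac without H3K4me3, the pattern used to call active enhancers. Which gene they act on was not tested.

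**Figure D3:**
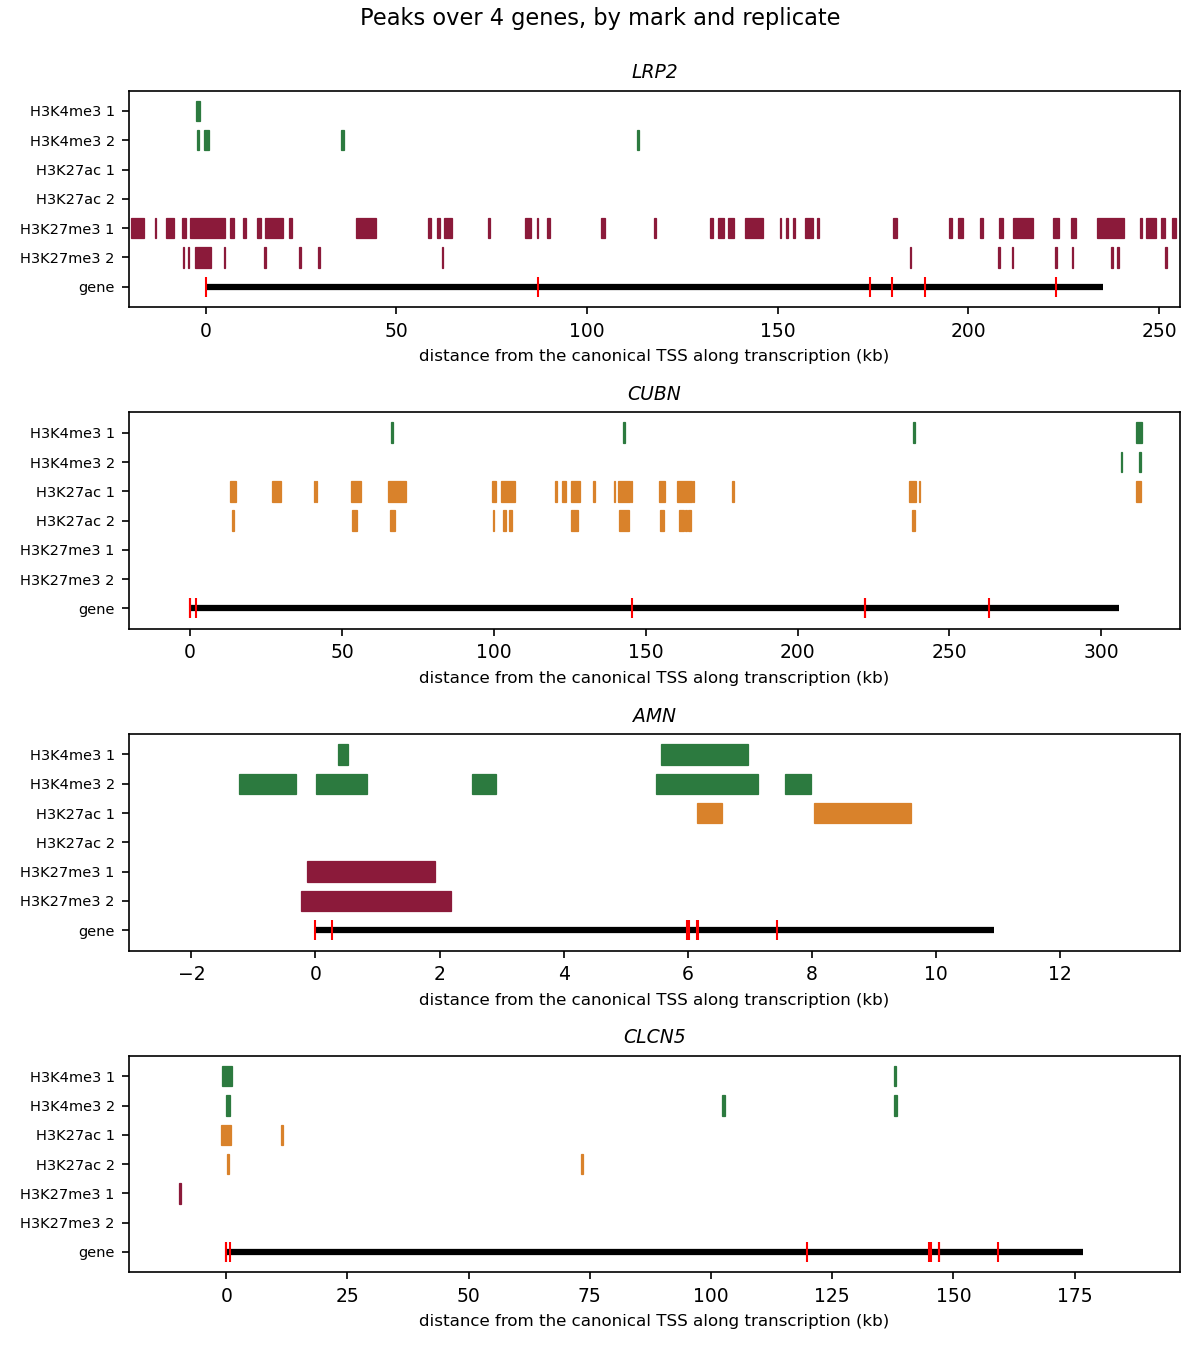
Peaks of H3K4me3 (green), H3K27ac (orange) and H3K27me3 (dark red) in replicates 1 and 2 over LRP2, CUBN, AMN and CLCN5, by distance in kb from the canonical TSS along transcription. The black bar is the gene and red ticks are annotated TSSs; H3K27me3 is spread over LRP2, H3K27ac is spread over CUBN away from its start, and AMN has separate marked stretches at its start and near its internal TSSs.

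The CUBN promoter is printed beside that of LRP2 because it has almost no CpG, and the middle of an acetylated stretch 54.2 kb into the gene is printed as an example of the acetylation inside the gene. The promoter is chr10:17171811-17172060, minus strand, with CpG in capitals. The stretch is chr10:17117435-17117734, plus strand, from the H3K27ac peak of replicate 2 from 17116822 to 17118348, with matches to the AP-1 letters TGANTCA in capitals.
CUBN promoter: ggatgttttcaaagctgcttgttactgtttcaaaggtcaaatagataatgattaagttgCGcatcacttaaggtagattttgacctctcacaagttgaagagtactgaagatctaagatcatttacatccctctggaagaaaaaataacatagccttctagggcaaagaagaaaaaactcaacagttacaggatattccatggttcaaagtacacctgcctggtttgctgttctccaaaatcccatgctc
CUBN intragenic H3K27ac peak: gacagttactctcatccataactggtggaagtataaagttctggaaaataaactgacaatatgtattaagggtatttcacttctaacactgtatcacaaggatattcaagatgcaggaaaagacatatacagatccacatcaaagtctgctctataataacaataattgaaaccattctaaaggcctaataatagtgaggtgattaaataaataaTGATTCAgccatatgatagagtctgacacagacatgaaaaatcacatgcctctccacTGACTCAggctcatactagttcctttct
The promoter holds 1 CpG and 38% G and C, and 2.85% of protein-coding promoters had fewer CpG. AP-1 is a dimer of Fos and Jun proteins that binds enhancers in many cell types, and the stretch was chosen for holding 2 matches. Over the middle 300 bases of the 14 shared peaks of CUBN, 3 held TGANTCA on either strand, against 15.6% of 21145 H3K27ac peaks of replicate 2 that were shared with replicate 1 and lay over 1 kb from a TSS. A match describes letters and does not show binding.

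LRP2 and CUBN were each set beside the protein-coding genes nearest in 8 values, the covered share of the 2 kb around the canonical TSS in the 6 lists and log10(FPKM + 1) in the 2 libraries. The nearest to LRP2 were ADGRA1, PROKR2 and ABCG1, at Euclidean distances of 0.00500, 0.0105 and 0.0209. ADGRA1 and PROKR2 were listed at an FPKM of 0 and ABCG1 was at 0.0178 and 0. Only 11 genes lay within 0.05 of LRP2. Nearest to CUBN were C11orf86, FAM180B and SLC39A2, at 0.00199, 0.00222 and 0.00226, and 3184 genes lay within 0.05. These numbers depend on the measure, since CUBN has 0 in all 6 lists and LRP2 an intermediate share in H3K4me3 replicate 2. By presence or absence of a peak within 1 kb of any TSS, 482 protein-coding genes had the pattern of LRP2 and 189 that of CUBN.

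Amnionless, which anchors cubilin, is a compact gene in which the start and the middle were marked differently. AMN (ENSG00000166126) lies on the plus strand of chromosome 14 from 103389000 to 103399933 and was at 2.43 and 2.76 FPKM, above 47.2% of protein-coding genes. Most of this was not assigned to the transcript that encodes the protein. The retained-intron transcript ENST00000558590, which starts inside the gene, was at 1.35 and 0.988, or 55.6% and 35.8% of the gene's FPKM. The canonical ENST00000299155 was at 0.342 and 0.613, or 14.1% and 22.2%, and all protein-coding transcripts together made 14.1% and 27.1%. This split rests on 12.3 and 21.5 read pairs for the canonical form and 70.8 and 50.4 for ENST00000558590, so it was poorly fixed. The first exon of the retained-intron transcript, 614 bases long, held 50.3% and 39.0% of that transcript's aligned bases. By protein-coding transcripts alone, AMN was therefore under 1 FPKM in both libraries.

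AMN overlaps CDC42BPB, a kinase gene on the opposite strand at 53.5 and 51.5 FPKM, by 1217 bp at its end. It shared 16.4% of its exon bases with other genes' exons, and these bases held 4.78% and 10.4% of its aligned bases. The strand of the reads is not known here, so which of the overlapping genes these reads came from is uncertain. The remainder lay in exons of AMN alone.

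The chromatin of AMN also divided between its start and its middle. Over the canonical TSS, H3K27me3 spanned 103388870 to 103390926 (replicate 1) and 103388770 to 103391186 (replicate 2). H3K4me3 peaks lay just after it, at 103389357 to 103389529 (replicate 1) and 103389015 to 103389828 (replicate 2). Replicate 2 had another before it, 103387768 to 103388688. Neither replicate had H3K27ac there. About 6 kb on, where the retained-intron transcript begins at 103394982, H3K4me3 peaks ran from 103394566 to 103395966 and from 103394497 to 103396130. An H3K27ac peak from 103395146 to 103395549 was called there in replicate 1 only, and no H3K27me3. The pattern of AMN over the 6 lists was that of 270 protein-coding genes (1.37%), whose median FPKM was 1.03. The sequence before the canonical start is printed because it lies at the edge of both H3K27me3 peaks. It is chr14:103388750-103388999, plus strand, with CpG in capitals.
AMN promoter: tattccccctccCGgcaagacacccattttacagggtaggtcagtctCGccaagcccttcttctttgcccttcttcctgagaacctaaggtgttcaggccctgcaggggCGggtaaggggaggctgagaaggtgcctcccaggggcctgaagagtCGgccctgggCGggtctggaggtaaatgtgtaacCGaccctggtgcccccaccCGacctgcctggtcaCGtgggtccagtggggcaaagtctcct
This window holds 8 CpG, while the 250 bases before the internal start at 103394982 hold 25. The start without H3K27me3 was thus the richer in CpG.

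DAB2 is the clathrin adaptor that binds the tails of megalin. DAB2 (ENSG00000153071) was at 11.6 and 12.0 FPKM on chromosome 5 (39371777 to 39462402, minus strand), above 71.8% of protein-coding genes, with 853 read pairs in each library. Its full-length transcript ENST00000320816, of 770 residues, was at 8.28 and 8.27, or 71.3% and 69.1% of the gene. ENST00000545653, of 749 residues, was at 1.12 and 1.22. The short form ENST00000339788, of 552 residues, was listed at 0 in both libraries, so the listed signal of DAB2 held none of it. Of its 15 TSSs, 7 had H3K4me3 and H3K27ac in both replicates, all around the canonical TSS at 39425082. The upstream TSSs, from 39462256 to 39462402, had no peak of any list, and the transcripts that start there were listed at 0. Around the canonical TSS H3K4me3 spanned 39423545 to 39426643 (replicate 1) and 39424430 to 39425548 (replicate 2). The H3K27ac peak of replicate 2 was only 356 bp long, from 39425374 to 39425729.

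GIPC1 is a PDZ-domain adaptor that links megalin to the motor myosin VI. GIPC1 (ENSG00000123159), at 14588572 to 14606961 of chromosome 19 (minus strand), was at 59.3 and 65.3 FPKM, above 95.6% of protein-coding genes. The level of the gene was stable between libraries, but its transcripts were not. ENST00000393033, the canonical form of 333 residues, was at 23.8 and 18.2. Its coverage was uneven, at 343 and 319 in exon 4 but 0.297 and 0.0124 in its last exon, of 806 bases. The level of this form therefore does not show that it was present at full length. ENST00000591349, annotated with 236 residues, was at 0.872 in library 1 and 34.8 in library 2, a 40.0-fold difference. ENST00000587210 went the other way, at 14.9 and 1.48, and ENST00000589631 was at 10.1 and listed at 0. These libraries therefore give a steady level for the sum of GIPC1 and not for its forms. At its TSS at 14606939, H3K4me3 and H3K27ac covered all of the 2 kb window in replicate 1, and 77.9% and 56.1% of it in replicate 2.

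CLTC encodes the heavy chain of clathrin, the scaffold of the vesicle coat in every cell. CLTC (ENSG00000141367), on the plus strand of chromosome 17 from 57697045 to 57774317, was at 88.0 and 92.8 FPKM, above 97.2% of protein-coding genes. ENST00000393043, of 1639 residues, made up 30.2% and 50.9% of this and the canonical ENST00000269122, of 1675 residues, 10.7% and 32.1%. ENST00000621829, which the later annotation no longer lists, made up 36.9% in library 1 and 4.24% in library 2. The coat gene thus had a firm total and an unsettled split. PTRH2 overlaps it on the opposite strand by 22321 bp at 12.3 and 9.82 FPKM, but 2.28% of the exon bases of CLTC were shared with other genes. Its promoter had the widest H3K4me3 of the members, 57695359 to 57700115 (replicate 1) and 57696174 to 57698470 (replicate 2). H3K27ac covered 100% and 79.3% of the 2 kb window. Within the gene, replicate 1 had an H3K27ac peak of 8510 bp, from 57741004 to 57749513. In replicate 2 only a short peak lay there, 48.4 to 48.9 kb after the canonical TSS of CLTC, so the width was not replicated.

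CLCN5 encodes ClC-5, whose loss causes Dent disease. CLCN5 (ENSG00000171365), on the plus strand of chromosome X from 49687206 to 49863892, was at 1.58 and 1.99 FPKM, above 44.1% of protein-coding genes. The gene has an upstream promoter, which yields a longer protein, and internal promoters, which yield a shorter one. The upstream transcripts ENST00000376088 and ENST00000376091, both of 816 residues, were at 0.558 and 1.27, and at 0.360 and 0.348. The internal transcript ENST00000376108, of 746 residues, was at 0.523 and 0.228, and ENST00000307367, of 746 residues, at 0.0543 and 0.00302. The upstream forms were together higher in both libraries, while the share of ENST00000376108 was 33.1% and 11.5%. These rest on 26.3 and 11.2 read pairs, so the size of the internal share was poorly fixed.

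Among the TSSs of CLCN5, peaks lay at the upstream start alone. H3K4me3 spanned 49686369 to 49688448 (replicate 1) and 49687139 to 49687996 (replicate 2), across the TSS at 49687206. H3K27ac ran from 49686134 to 49688243 in replicate 1, and in replicate 2 over 388 bp from 49687304 to 49687691. Of the 9 TSSs of CLCN5, 3 were marked by both, all at this end, and no peak of any list lay within 1 kb of the internal TSS at 49832231. The nearest H3K27me3 peak to the upstream TSS was 9.43 kb away, in replicate 1. Both starts are printed to show how differently they are built, as chrX:49686956-49687205 and chrX:49831981-49832230, plus strand, with CpG in capitals.
CLCN5 upstream promoter: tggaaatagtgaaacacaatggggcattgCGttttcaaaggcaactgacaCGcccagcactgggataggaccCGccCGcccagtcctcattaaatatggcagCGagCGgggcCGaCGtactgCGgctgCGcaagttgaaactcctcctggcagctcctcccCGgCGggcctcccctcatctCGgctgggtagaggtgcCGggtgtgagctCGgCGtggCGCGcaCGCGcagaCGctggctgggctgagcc
CLCN5 internal promoter: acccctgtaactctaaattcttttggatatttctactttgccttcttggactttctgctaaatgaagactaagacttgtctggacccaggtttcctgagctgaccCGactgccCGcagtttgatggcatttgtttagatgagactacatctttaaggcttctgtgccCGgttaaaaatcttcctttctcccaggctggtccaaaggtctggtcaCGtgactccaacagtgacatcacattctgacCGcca
The marked upstream window holds 21 CpG and the unmarked internal window 5.

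OCRL is the phosphatase lost in Lowe syndrome and in some families with Dent disease. OCRL (ENSG00000122126), on the plus strand of chromosome X from 128673826 to 128726538, was at 17.8 and 17.3 FPKM, above 79.9% of protein-coding genes. Its transcripts had the steadiest split of the 7 detected members apart from CUBN, which has a single detected form. ENST00000357121, of 893 residues and 23 exons, was at 12.7 and 11.8, and the canonical ENST00000371113, of 901 residues and 24 exons, at 4.44 and 5.04. The form without the additional exon was thus the main one, with 71.8% and 68.4% of the gene. H3K4me3 spanned 128673692 to 128675315 (replicate 1) and 128674132 to 128674990 (replicate 2), across its TSS at 128674236. H3K27ac ran from 128674098 to 128674953 and from 128674201 to 128674506, which at 306 bp was the shortest such peak at a member's canonical start.

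The share of a gene's FPKM that sits on other transcripts in library 2 than in library 1 puts these splits on a common scale. Over 11133 protein-coding genes whose mean FPKM was 1 or more and that have more than 1 transcript, the median was 12.8% and the 90th percentile 45.8%. GIPC1 was past that percentile at 58.1%, and CLTC was close to it at 43.1%. CLCN5 was at 30.3%, AMN at 24.6%, DAB2 at 8.63% and OCRL at 4.07%. The transcripts of a gene share many of their bases, and the cause of these differences was not tested.

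**Figure D4:**
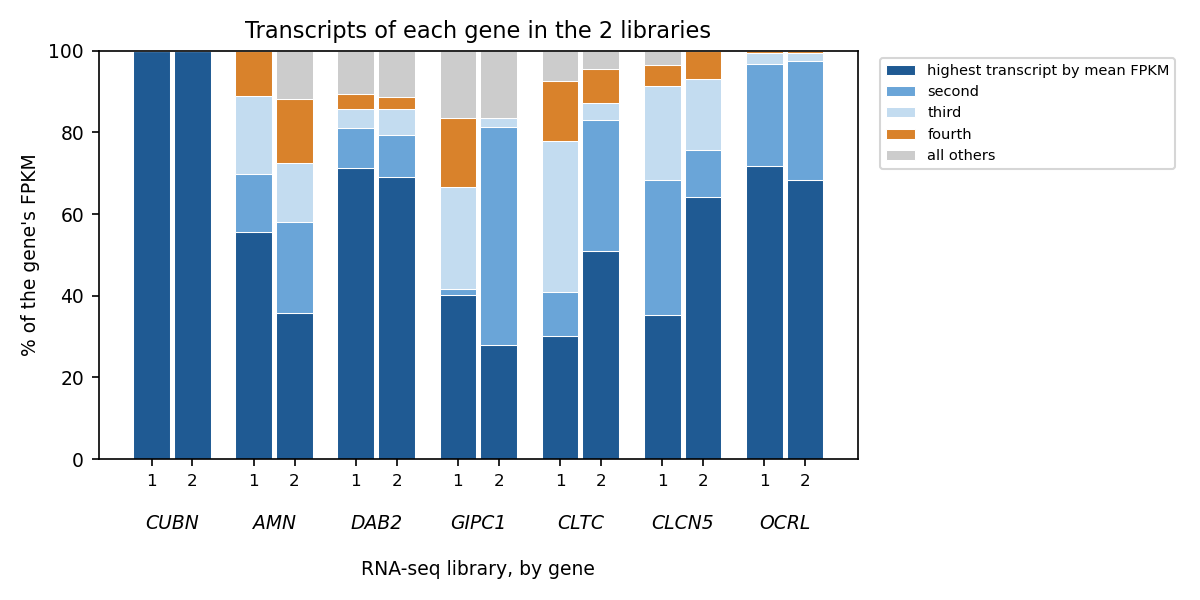
Percentage of each gene's FPKM given by its transcripts in RNA-seq libraries 1 and 2, ordered by mean FPKM from the bottom of each bar, for the 7 genes with any signal. The bars of OCRL and DAB2 look alike in the libraries, while in GIPC1 the transcript ranked second by mean is 1.47% of library 1 and 53.4% of library 2.

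Short motifs were searched on both strands in the 250 bases before the canonical TSS of each gene, which were identical to the RefSeq GRCh38.p14 entries for 8 of 8 members. GGGCGG, the GC box, was in 6 of the 8, all but CUBN and OCRL, and in 59.5% of protein-coding promoters. CCAAT was in GIPC1 alone, with 2 matches, and in 34.3% of promoters. CACGTG, the E box bound by regulators of lysosome genes among others, was in AMN 29 bases before the TSS and in 7.91% of promoters, and it also stood 38 bases before the internal TSS of CLCN5. CAAAGTCCA, a form of the HNF4 site, TATAAA and TGANTCA were in 0 members, and in 0.271%, 9.22% and 4.71% of promoters. None of these motifs was in all 8 promoters.

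Around the 8 genes, most other genes of the pathway were detected. Of 103 such genes, in lists from receptors to tubular transcription factors, 92 reached 1 FPKM in both libraries, 3 were listed at 0 and the median was 15.3. Among all protein-coding genes 58.8% reached 1 FPKM, 19.6% were listed at 0 and the median was 3.32. The lowest and highest gene of each list are given by mean FPKM, and single libraries can differ in that order. All 6 other receptors and their chaperone passed, by mean from the Fc receptor FCGRT at 8.10 and 12.0 to the megalin relative LRP1 at 24.4 and 23.9, while in library 2 SCARB2 was higher at 29.2. The megalin chaperone LRPAP1 was at 22.1 and 20.9, so it was expressed where its main kidney client was not detected. Of 8 receptor adaptors 7 passed, with APPL2 highest by mean at 13.5 and 14.3, NUMB at 12.5 and 14.8, and the neuronal DAB2 relative DAB1 lowest at 0.00389 and 0. All 9 genes of clathrin and the AP2 adaptor passed, by mean from CLTCL1 at 12.1 and 8.47 to AP2M1 at 310.0 and 274, while in library 1 CLTB was lowest at 8.79.

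Coat accessory and scission genes passed in 13 of 14 cases, from amphiphysin (AMPH) at 0.0986 and 0.0475 to the uncoating chaperone HSPA8 at 930.1 and 832. Further along the route come the enzymes and pumps of endosomes. Phosphoinositide enzymes of endosomes passed in 8 of 9 cases, led by SYNJ2 at 13.9 and 14.2, with the OCRL partner PHETA2 listed at 0 and PHETA1 at 7.70 and 9.81. Endosomal chloride channels and exchangers all passed, 5 of 5, and CLCN3 at 22.3 and 17.7 and CLCN4 at 2.23 and 2.61, relatives of ClC-5, were each above CLCN5 in both libraries. The vacuolar proton pump passed in 17 of 20 cases, led by ATP6V0C at 136 and 84.0. The 3 that did not pass were ATP6V0D2, listed at 0, ATP6V0A4 at 0.116 and 0.259 and ATP6V1B1 at 0.524 and 0.327, isoforms best known from acid-secreting cells. All 14 endosomal Rab proteins and effectors passed, from RAB38 at 1.18 and 1.34 to RAB7A at 140.0 and 131.

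The lists of the apical membrane and of tubular transcription passed at shares nearer to the 58.8% of all protein-coding genes. Of 6 genes of apical trafficking and microvilli 4 passed, led by ezrin (EZR) at 206 and 196, while the proton exchanger SLC9A3 was at 0.364 and 0.244 and the microvillus protein villin (VIL1) at 0 and 0.0224. Of 5 tubular transcription factors 3 passed, among them PAX8 at 100.2 and 104 and PPARA at 4.63 and 5.27. HNF4A, known as a regulator of mature proximal tubule genes, was listed at 0 in both libraries. Whether its level bears on those of LRP2 and CUBN was not tested. Of 7 genes of other Fanconi syndromes 6 passed, with the trafficking gene VIPAS39 highest at 11.3 in both libraries and the phosphate carrier SLC34A1 the lowest.

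**Figure D5:**
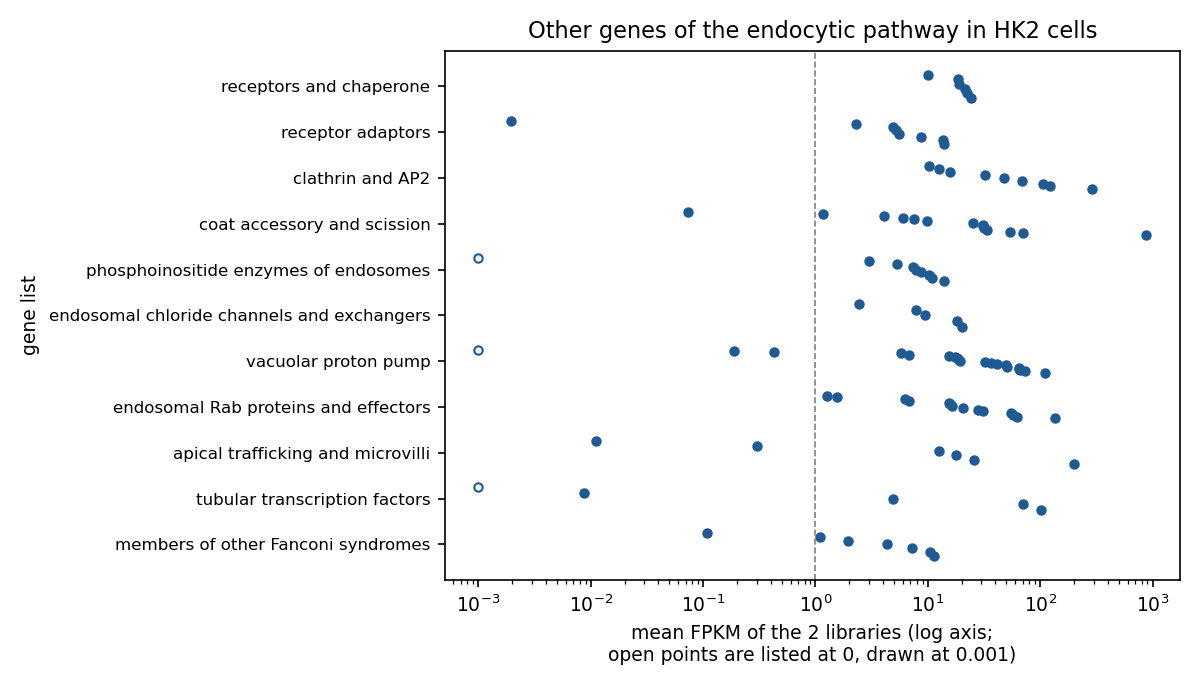
Mean FPKM over the 2 libraries of each of the 103 other pathway genes, by list, on a log axis with a dashed line at 1 and open points for genes listed at 0. Nearly all points lie right of the line, and the 11 to its left are spread over 7 of the 11 lists.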

How the data were processed

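RNA-seq (2 libraries) and ChIP-seq of 3 histone marks (2 replicates each) in HK2 cells were used, and 3 samples, input DNA and HiChIP, were not analysed here. The authors used Bowtie2 (hg19, unique alignments) and then MACS2 on every ChIP-seq replicate. The 6 lists they deposited hold positions without scores, so the reads behind a single peak are unknown, and the paper's table of depth per replicate was not used here. The replicate without a number was taken as replicate 1. The authors mapped RNA-seq reads with HISAT2 and deposited FPKM, TPM and coverage (mean reads per base) per transcript from StringTie 1.3.3 with GENCODE 27, whose coordinates are GRCh38, although their methods name hg19 for the mapping. FPKM was summed over the transcripts of a gene. Aligned bases were coverage times exon length, read as read pairs of 300 bases, the commonest value in both libraries, and 22.4% of protein-coding genes were at 0 in each library.

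Genes were joined by Ensembl identifier to TSSs of GENCODE 44 mapped to GRCh37. A peak counted at a TSS when it lay within 1 kb. Python 3.11.15, numpy 2.4.6, pandas 2.3.3 and matplotlib 3.10.9 were used, and the overlap functions were tested on simulated data. No test was run, since there is 1 condition.

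Named genes were the 8 members, the lists of pathway and marker genes, with the lowest and highest of each list, and the 3 genes nearest to LRP2 and to CUBN. Some listed genes and motifs are not reported here. Members and lists were chosen with earlier results of these data known. The list of genes used by every cell, the genes named beyond the rule and the printed sequences were chosen after the values were seen. Alternatives varied the FPKM threshold, pseudocount, low-level filter, TPM, TSS window, TSS choice, peak width, overlap and replicates.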

Additional observations from a re-analysis of the deposited data

How the results depend on the processing

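The count of members at 1 FPKM or more was 6 with a threshold of 0.5 (62.3% of protein-coding genes), with TPM (63.8%) and without library 1 (59.8%) or library 2 (59.6%), and 4 with a threshold of 5 (43.1%), at which AMN and CLCN5 were lost. The count of other pathway genes was 92 with a threshold of 0.5 and without either library, and 79 with a threshold of 5. The median of log10 values was 0.753 with a pseudocount of 0.1 (all protein-coding genes 0.535), 1.19 with only genes at a mean of 0.1 FPKM or more (0.973) and 1.22 with TPM, and it ran from 0.818 to 0.844 over the libraries left out. It was above that of all protein-coding genes in every alternative run, and the shifts follow from the scale and from leaving out LRP2 and CUBN. Members with H3K4me3 and H3K27ac at a TSS numbered 5 with windows of 500 bp, 2 kb or the canonical TSS only (52.7%, 54.5% and 49.5% of protein-coding genes), and 6 with peaks of either replicate (65.9%), where AMN joined. They numbered 2 with peaks of at least 500 bp (43.6%), which is below the background where the 5 of 8 were above it, and 5 to 6 with a replicate left out (53.7% without replicate 1, 65.2% without replicate 2). H3K27me3 was counted in LRP2 and AMN under all 7 alternatives run, against 9.45% (canonical TSS) to 16.2% (either replicate) of protein-coding genes.

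The next alternatives were chosen after seeing the data. Members with H3K4me3 and H3K27me3 without replicated H3K27ac numbered 2 within 2 kb (6.21% of protein-coding genes), 1 within 500 bp (5.23%) or at the canonical TSS (5.25%), and 0 to 2 with a replicate left out (9.16% without replicate 1, 4.76% without replicate 2). The 0 is below its background, unlike the 1 of 8. Members without any peak numbered 1, CUBN, at the canonical TSS only (19.4%). Single peaks moved these counts. Without replicate 2, AMN left through H3K27ac peaks of replicate 1 near internal TSSs, while its canonical TSS had no H3K27ac. LRP2 joined within 2 kb through the H3K4me3 peak of replicate 1 that began 1566 bp upstream. The only peaks counted for CUBN lay near an internal TSS. Why the replicates differed in such peaks was not tested.

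Counts of H3K27ac peaks over gene bodies were unchanged in 12 of 16 cases when at least 50% of a peak had to lie inside. The single highest transcript gave CLTC 39.9, GIPC1 29.3, OCRL 12.3, DAB2 8.28, AMN 1.17 and CLCN5 0.916 in place of their sums, which puts the mean of CLCN5 under 1 FPKM, and the AMN transcript was at 0.988 in library 2, so neither gene reached 1 in both libraries this way.

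No paired analysis was possible because the libraries and replicates carry no pairing and there is 1 condition. Low levels are limited by depth, CUBN by fewer than 10 read pairs a library. Peaks have no score, the replicates differ in number and width of peaks, and an uncalled peak is not evidence that a mark is absent. The 3 marks do not cover every kind of silencing, and the RNA and ChIP measurements are separate samples. The line was not compared with kidney tissue here.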

Other observations

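HK2 cells held several genes of protein recovery that are not among the 8. The lysosomal membrane protein SCARB2 was at 15.0 and 29.2 FPKM. Retrieval from endosomes was represented by VPS35, a retromer subunit, at 56.0 and 53.5 and by SNX17, which returns receptors to the surface, at 28.0 and 27.6. The light chains of clathrin were less steady between libraries than the heavy chain, with CLTA at 146 and 65.5 and CLTB at 8.79 and 16.1. All 3 dynamins, which pinch vesicles off, were above 1 FPKM in both libraries, with DNM2 at 70.8 and 70.1, DNM1 at 51.4 and 55.9 and DNM3 at 1.12 and 1.23.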
